A study of Mus musculus with 12 samples.

Results

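The genes described here carry out or restrain regulated cell death. They are the members of the BCL-2 family, the caspases, the inhibitor of apoptosis (IAP) proteins and their partners in apoptosis, the kinases and effector of necroptosis, and the inflammasome proteins and gasdermins of pyroptosis. They were chosen by a rule on names that uses no measured value: every symbol in the count table that begins with Bcl2 or is Casp followed by a number, together with a written list of further genes. The choice was made with earlier results of these data known. The rule found 48 of the 21956 genes in the table.

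Expression was measured by poly(A) RNA-seq of brain tissue from 12 mice in 4 groups of 3. Intracerebral hemorrhage (ICH) was induced by injection of collagenase, an enzyme that weakens vessel walls, into the right striatum, and tissue beside the hematoma was taken 48 h later. Sham mice underwent the procedure without collagenase. All 4 groups carried the floxed Fabp4 allele, in which the gene for fatty acid-binding protein 4 can be cut out by Cre recombinase. In Sham-Fabp4CKO and ICH-Fabp4CKO mice, a Cre that works only after tamoxifen was driven by Tmem119, a gene of microglia, so the deletion was aimed at these cells alone. Sham-Fabp4fl/fl and ICH-Fabp4fl/fl mice were the floxed controls. The sources used here do not give the age of the knockout mice or say whether the floxed controls received tamoxifen. Each library is 1 mouse, and the tissue is a mixture of cells, so fewer cells of a type and less RNA per cell cannot be told apart.

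Apoptosis runs through either of 2 routes. In the mitochondrial route, BH3-only proteins relieve the pore-forming proteins Bax and Bak1 from restraint by anti-apoptotic BCL-2 proteins, cytochrome c leaves the mitochondria, and Apaf1 activates caspase-9. In the death receptor route, caspase-8 is activated at the receptor, and both routes end with the activation of further caspases. When caspase-8 is not active, Ripk1 can activate Ripk3, which phosphorylates Mlkl, and Mlkl breaks the plasma membrane (necroptosis). Inflammasomes activate caspase-1, which cuts Gsdmd into a pore and matures interleukin-1 (pyroptosis), a route best known from macrophages and microglia.

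Total counts ranged from 15650813 to 22406216 per library. Fabp4 itself had 1 to 2 counts in the Sham-Fabp4fl/fl mice and 0 in each Sham-Fabp4CKO mouse. After ICH it had 24 to 63 counts in ICH-Fabp4fl/fl mice and 3 to 10 in ICH-Fabp4CKO mice, a difference in the direction of the labels. The sham counts were all at or under 3, too few to check the sham labels. As the tissue is a mixture of cells, these counts do not show in which cells Fabp4 was lower. Several libraries stood apart. ICH-Fabp4CKO mouse 2 had summed monocyte and macrophage markers of 466 CPM (counts scaled to a common library size), against 2442 and 3161 in mice 1 and 3 of its group and 612 to 2183 in ICH-Fabp4fl/fl mice. ICH-Fabp4CKO mouse 1 had 1 read on Y-linked genes, against 1302 to 2251 in the other libraries. The labels do not say whether this mouse was female. Summed choroid plexus markers were 852 to 3260 CPM in Sham-Fabp4fl/fl mice and 20.7 to 50.5 CPM in the other 9 libraries, and summed striatal neuron markers were 1418, 1659 and 4505 CPM in Sham-Fabp4fl/fl mice 1, 2 and 3 and 3041 to 5310 CPM in Sham-Fabp4CKO mice.

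The first question was how these genes differed between ICH and sham tissue in mice with intact Fabp4. Of the 48 genes, 42 passed the filter on low counts and were tested (edgeR quasi-likelihood F-test, Benjamini-Hochberg adjusted p under 0.05). After ICH, 29 of them were higher and 2, Bok and Bcl2l2, were lower. Among all 14719 genes tested, 26.2% were higher and 19.3% lower. The median difference, as log2 fold change, was 1.65 for the 42 genes and 0.0192 for all genes. In 33 of the 42, all 3 ICH-Fabp4fl/fl mice lay above all 3 Sham-Fabp4fl/fl mice, and in 3 they lay below, where 33.0% and 29.0% of all genes tested did so. The increases included all necroptosis and inflammasome genes tested and most of the caspases. The BCL-2 family held further increases and the 2 decreases. Markers of other cells moved with them: 9 of 10 monocyte and macrophage markers, 7 of 9 microglial markers in the table and 5 of 6 neutrophil markers tested were higher after ICH. The summed monocyte and macrophage level was 79.0 to 96.6 CPM in Sham-Fabp4fl/fl mice, the microglial one 360 to 427 CPM in sham and 1412 to 1588 CPM after ICH, and the neutrophil one 6.52 to 13.3 CPM in sham and 53.5 to 90.4 CPM after ICH, with Ly6g at 0 in all ICH-Fabp4fl/fl mice. Of the endothelial markers 8 of 8 were also higher, while 7 of 10 neuronal and 6 of 6 choroid plexus markers were lower, the last with a median log2 fold change of -5.83. The part of these markers in the differences of the cell death genes was not tested.

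**Figure D1:**
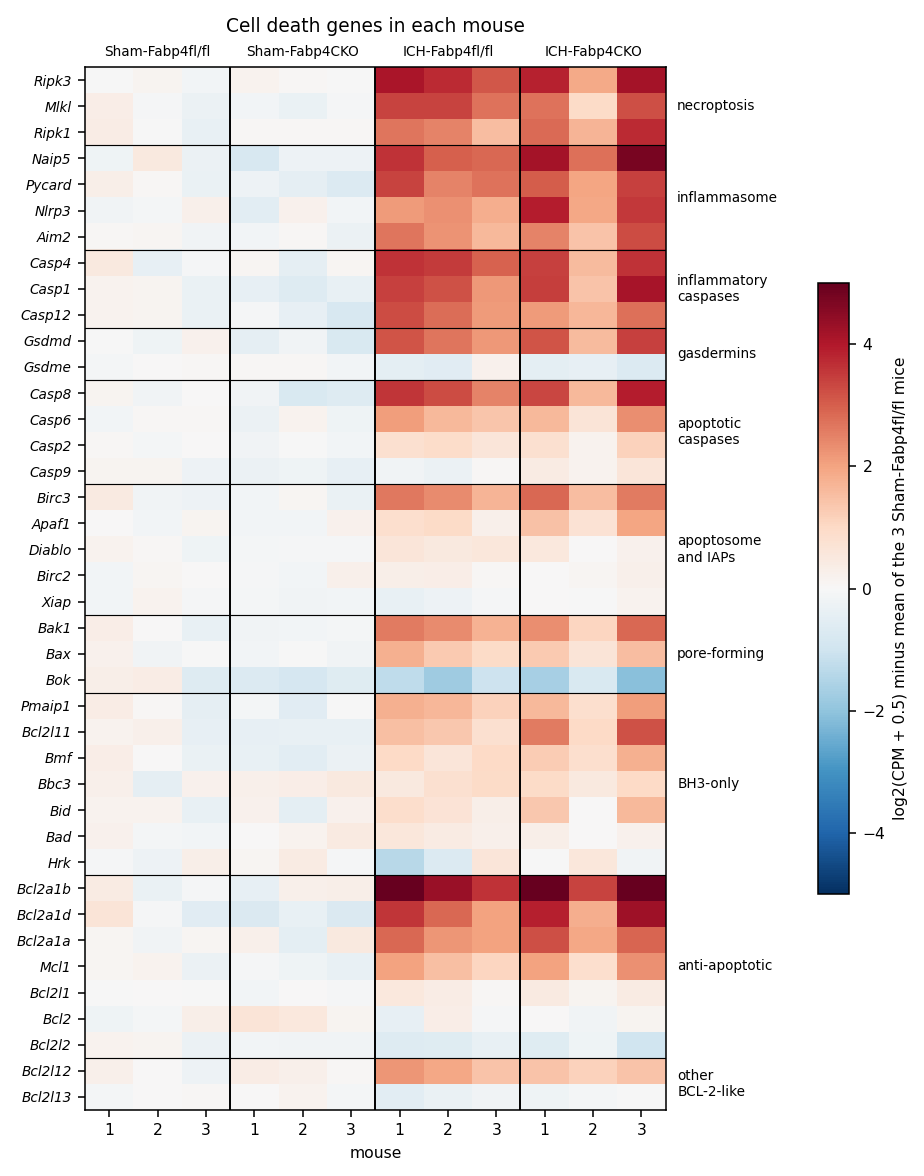
Level of 40 of the 42 tested cell death genes in each of the 12 mice, as log2(CPM + 0.5) minus the mean of the 3 Sham-Fabp4fl/fl mice; rows are genes grouped by role, columns are mice, and the color scale saturates at 5. Red cells fill the ICH columns for necroptosis, inflammasome and most of the caspase genes shown, ICH-Fabp4CKO mouse 2 is paler than its group, and Bok is blue in all 6 ICH mice.

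All 3 necroptosis genes were higher after ICH. Ripk3, the kinase that commits a cell to necroptosis, was at 0.0957, 0.166 and 0.0526 CPM in the Sham-Fabp4fl/fl mice and at 9.66, 7.44 and 4.73 CPM in the ICH-Fabp4fl/fl mice. The sham values rest on 6 counts in all, against 359 after ICH, a ratio of 68.6 (95% counting interval 31.2 to 188), and the adjusted p was 0.000352. This interval covers counting error alone. Mlkl, the membrane-breaking protein that Ripk3 phosphorylates, went from 0.574, 0.331 and 0.210 CPM to 8.34, 8.47 and 5.21 CPM (log2 fold change 4.28 ± 0.428 SE, adjusted p = 0.000531). Ripk1, which acts upstream of both and also carries survival signals from the TNF receptor, rose from 7.75, 5.74 and 4.36 CPM to 39.3, 34.3 and 17.7 CPM (2.37 ± 0.352, adjusted p = 0.00218). In none of these genes did the groups overlap, and ICH-Fabp4fl/fl mouse 3 was the lowest of the ICH mice of that genotype in each.

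The 4 inflammasome genes all rose. Pycard, the adaptor that joins sensors to caspase-1, was at 3.97, 3.37 and 2.42 CPM in sham and 38.2, 20.3 and 23.6 CPM after ICH (log2 fold change 3.09 ± 0.320 SE, adjusted p = 0.000604). Nlrp3, the sensor that responds to membrane damage and potassium efflux, rose from 1.00, 1.05 and 1.52 CPM to 6.83, 7.62 and 5.47 CPM (2.49 ± 0.291, adjusted p = 0.000871), a narrow range among the 3 ICH mice. The DNA sensor Aim2 rose by 2.47 ± 0.320 and Naip5, a sensor of bacterial flagellin, by 3.70 ± 0.393 on the log2 scale. Naip5 has near-identical neighbors in the Naip family, so the division of reads among them is uncertain. The inflammatory caspases rose in 3 of 3 cases. Casp1 was at 1.24, 1.22 and 0.736 CPM in sham and 16.1, 13.7 and 6.54 CPM after ICH (3.51 ± 0.420, adjusted p = 0.000947). Casp4, the mouse caspase-11 that senses lipopolysaccharide in the cytosol, rose by 4.70 ± 0.581 from sham levels of 0.0552 to 0.526 CPM, and Casp12 rose by 3.41 ± 0.419. These 3 genes are direct neighbors on mouse chromosome 9 in the RefSeq annotation, with no other protein-coding gene between them. Of the gasdermins, Gsdmd, the pore that caspase-1 opens, rose from 1.77, 1.49 and 2.21 CPM to 19.97, 14.3 and 9.94 CPM (3.03 ± 0.324, adjusted p = 0.000655). Gsdme, a related pore-forming protein, was at 22.3, 24.1 and 24.6 CPM in sham and 16.7, 15.6 and 27.2 CPM after ICH, with overlapping groups and an adjusted p of 0.414.

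**Figure D2:**
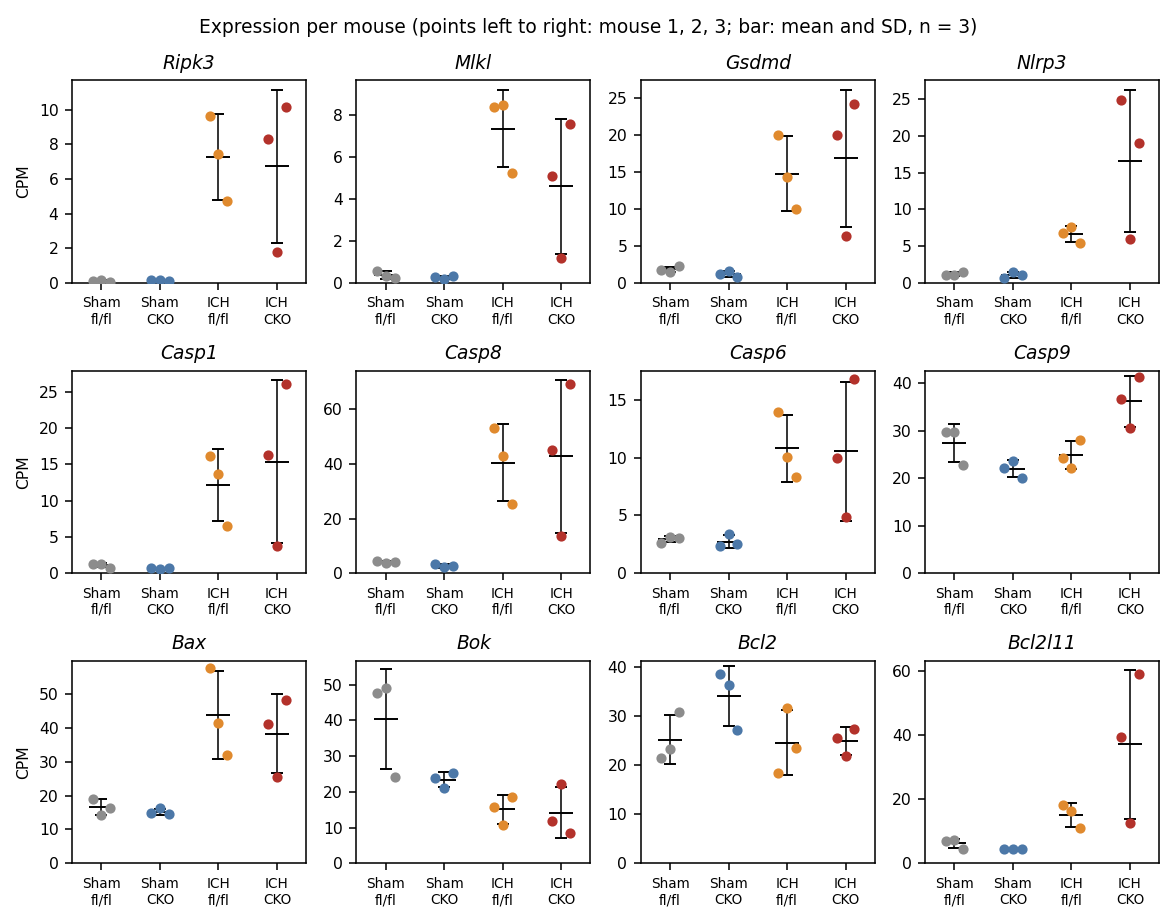
CPM of 12 cell death genes in each mouse (points from left to right are mice 1, 2 and 3 of each group; horizontal bars show the mean and whiskers the SD, n = 3; each axis starts at 0). Ripk3, Mlkl, Gsdmd, Casp1, Casp8, Casp6, Bax and Bcl2l11 are above sham in all ICH mice, Bcl2 overlaps between all groups, and mouse 2 is the lowest of the 3 ICH-Fabp4CKO mice in each panel but Bok.

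The promoter windows of these genes were searched for 3 patterns bound by factors of inflammatory signaling: GAAA and GAAA 2 bases apart (interferon-regulatory factors), TTC and GAA 3 bases apart (STAT proteins), and GGGA and TTCC 2 bases apart (NF-kappaB). Both strands were read over 250 bases before and 50 bases after each RefSeq start (GRCm38.p6), and 42 of the 48 genes matched the promoter table. The first was found in 1 of the 42 genes, the second in 2 and the third in 0, against 3.99%, 9.55% and 1.63% of all 27025 genes in the table. The matches fell on Ripk1 and Casp12, both higher after ICH, and are printed here because no other gene of the set held a match, with the pattern in capitals and all letters in the gene's direction (both genes on the plus strand). In Ripk1 the first pattern overlaps the second match. A match describes letters, not a bound site.
Ripk1, first pattern, chr13:34002859-34002888: aacgttcccgGAAATCGAAAagcgcggaac
Ripk1, second pattern, chr13:34002756-34002784: agaagctggtTTCCCGGAAggggcggagg
Ripk1, second pattern, chr13:34002853-34002881: acttcaaacgTTCCCGGAAatcgaaaagc
Casp12, second pattern, chr9:5345364-5345392: ctggttgactTTCTGGGAAaagagcagga
Casp12, second pattern, chr9:5345430-5345458: attggtatgtTTCTGGGAAggaaaggcac

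Among the apoptotic caspases, Casp8, Casp6 and Casp2 rose and Casp9 was not called. Casp8, the initiator of the death receptor route and the enzyme that holds necroptosis in check, went from 4.55, 3.59 and 4.10 CPM in Sham-Fabp4fl/fl mice to 53.1, 43.1 and 25.2 CPM in ICH-Fabp4fl/fl mice (log2 fold change 3.33 ± 0.302 SE, adjusted p = 0.00041). Casp6, which cuts lamins of the nucleus, went from 2.63, 3.09 and 3.05 CPM to 13.99, 10.1 and 8.34 CPM (1.90 ± 0.259, adjusted p = 0.00152). Casp2, an initiator activated after DNA damage, rose by 0.82 ± 0.157 on the log2 scale. Casp9, the initiator of the mitochondrial route, was at 29.7, 29.8 and 22.8 CPM in sham and 24.3, 22.1 and 28.1 CPM after ICH. Its groups overlapped, and the difference of -0.13 ± 0.170 did not pass the test (adjusted p = 0.564). The initiators of the 2 routes thus differed in this comparison, with Casp8 called and Casp9 not, although the difference between the 2 genes was not itself tested.

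Of the apoptosome and IAP genes, 3 of 5 rose. Birc3, an IAP protein that ubiquitinates Ripk1, rose from 2.87, 1.71 and 1.58 CPM to 14.98, 12.3 and 7.65 CPM (log2 fold change 2.51 ± 0.360 SE, adjusted p = 0.00188). Diablo, the mitochondrial antagonist of IAP proteins, and Apaf1, the scaffold of the apoptosome, rose by 0.58 ± 0.148 and 0.75 ± 0.220 (adjusted p = 0.0168 and 0.0285). With 1 mouse left out, Diablo lost its call in 3 of 6 fits and Apaf1 in 5 of 6. Birc2, the direct neighbor of Birc3 on chromosome 9, was at 22.5, 27.1 and 25.7 CPM in sham and 31.0, 31.2 and 25.7 CPM after ICH (0.24, adjusted p = 0.203). Xiap, an IAP protein that binds and inhibits caspases, did not pass the test either (-0.21, adjusted p = 0.271).

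Most of the BCL-2 family genes that were called were higher after ICH. Bok and Bcl2l2 were the only members called lower, 4.76% of the 42 tested, against 19.3% of all genes tested. Of the pore-forming proteins, Bax was at 19.0, 14.3 and 16.2 CPM in sham and 57.5, 41.5 and 31.99 CPM after ICH (log2 fold change 1.42 ± 0.241 SE, adjusted p = 0.00368), and Bak1 rose by 2.31 ± 0.283 (adjusted p = 0.00104). Bok, a related protein of intracellular membranes, was at 47.6, 49.2 and 24.2 CPM in sham and 15.8, 10.8 and 18.6 CPM after ICH, a decrease with an adjusted p of 0.0119. Its log2 fold change was -1.40 ± 0.322. The sham mice with high Bok were mice 1 and 2, the same libraries in which striatal markers were low. Without Sham-Fabp4fl/fl mouse 1 or mouse 2 Bok was still called lower, but each of these fits kept the other of these libraries. The part of the striatal difference in the decrease of Bok was therefore not tested. Among anti-apoptotic genes, 4 of 7 tested rose and 1 fell. Mcl1, a short-lived protein that holds Bak1 inactive, rose from 79.1, 83.2 and 60.3 CPM to 295, 209 and 156 CPM (1.59 ± 0.266, adjusted p = 0.00352). Bcl2a1b, a survival gene of myeloid cells, rose from 1.53, 0.718 and 0.999 CPM to 62.7, 30.4 and 18.5 CPM (5.10 ± 0.553, adjusted p = 0.000684). Its near-identical copies Bcl2a1a and Bcl2a1d also rose, by 3.57 and 3.94, and the division of reads among the copies is uncertain.

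Bcl2 itself did not move with them. It was at 21.3, 23.3 and 30.8 CPM in sham and 18.5, 31.7 and 23.5 CPM after ICH, with a log2 fold change of -0.02 ± 0.229 (adjusted p = 0.957). Bcl2l2, an anti-apoptotic protein found in neurons, was below sham in every ICH-Fabp4fl/fl mouse (-0.54 ± 0.176, adjusted p = 0.0394) at 78.5 to 95.1 CPM against 101 to 138 CPM. It lost that call in 4 of the 6 fits that left out 1 mouse and in the fits with all 12 libraries or with the replicate block. The ratio of Bax to Bcl2 CPM, which is not corrected for transcript length and is used between mice alone, was 0.890, 0.615 and 0.525 in Sham-Fabp4fl/fl mice and 3.12, 1.31 and 1.36 in ICH-Fabp4fl/fl mice. In Fabp4CKO mice it was 0.388, 0.447 and 0.534 in sham and 1.61, 1.17 and 1.76 after ICH. This ratio was chosen after the values were seen and was not tested. In both genotypes each ICH mouse was above each sham mouse.

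Of the BH3-only proteins, 3 of 7 tested rose: the p53 target Pmaip1 (log2 fold change 1.72, adjusted p = 0.00616), Bcl2l11, which encodes Bim (1.301, adjusted p = 0.00907), and Bmf (0.93, adjusted p = 0.0186). Bmf lost its call in 3 of the 6 fits that left out 1 mouse. Bid, Bad and Bbc3 were 0.68, 0.43 and 0.86 above sham without passing the test (adjusted p = 0.0565, 0.0789 and 0.0616), and the neuronal Hrk was at 27.2, 23.6 and 35.1 CPM in sham and 10.5, 17.3 and 43.1 CPM after ICH. Bcl2l12 rose by 2.33 ± 0.361 (adjusted p = 0.00255), and Bcl2l13 did not pass the test (-0.33, adjusted p = 0.0851). The 6 genes left untested had too few counts in these 6 libraries to pass the filter. Bcl2l10 had 0 counts in all 12 libraries and Bcl2a1c at most 3. Casp14 was counted in Sham-Fabp4fl/fl mouse 1 alone, at 0.287 CPM, and Bcl2l14 had 0 counts in all 6 sham mice and 0.111 to 0.363 CPM in the ICH mice. Bcl2l15 was at or under 0.526 CPM in all 12. Bik was at 0 in 5 of the 6 sham mice and at 0.242 to 3.61 CPM after ICH, and was tested in the genotype comparison after ICH and in the interaction. Against a floor of 3 counts per library its mean was at least 14.2-fold higher in ICH-Fabp4CKO than in Sham-Fabp4CKO mice, a difference that was not tested. ICH-Fabp4CKO mouse 2 was at 0.427 CPM, against 1.89 and 3.61 CPM in mice 1 and 3.

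**Figure D3:**
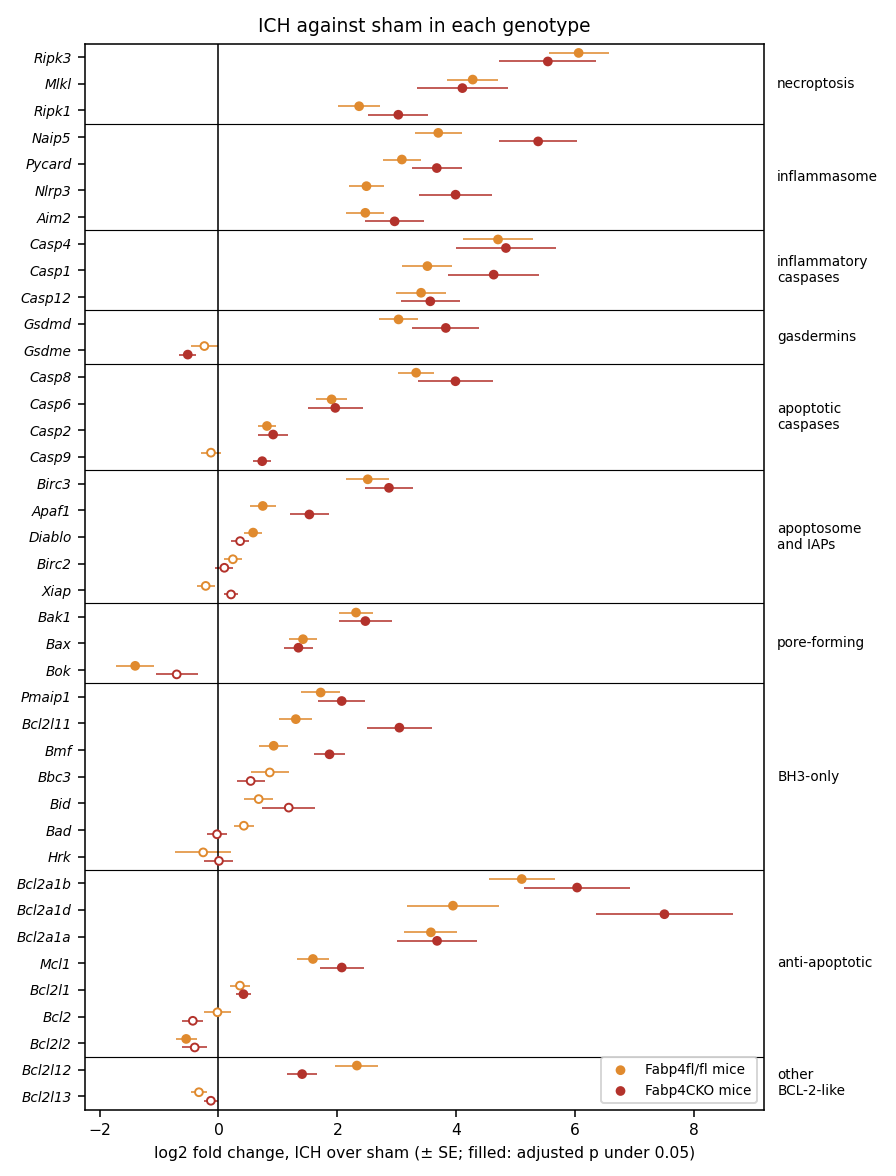
Log2 fold change of ICH over sham with its SE for 40 of the 42 tested genes in Fabp4fl/fl (orange) and Fabp4CKO mice (red), grouped by role; filled points passed an adjusted p of 0.05. Of the 40, 27 were called higher and 2 lower in Fabp4fl/fl mice and 28 higher and 1 lower in Fabp4CKO mice.

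The same comparison was made in the mice without microglial Fabp4. Of 42 genes tested, 30 were higher and 1 lower in ICH-Fabp4CKO than in Sham-Fabp4CKO mice, where 24.5% and 11.1% of all 14737 genes tested were. The median log2 fold change was 2.02 for these genes and 0.0138 for all genes. The number called depended on single libraries: it was 8, 8 and 6 higher without Sham-Fabp4CKO mouse 1, 2 or 3, 18 without ICH-Fabp4CKO mouse 1, 34 without mouse 2 and 28 without mouse 3. The number of all genes called moved as well: it was 5247 with all 6 libraries, 847, 842 and 751 without Sham-Fabp4CKO mouse 1, 2 or 3, and 1583, 10099 and 3047 without ICH-Fabp4CKO mouse 1, 2 or 3. The 3 ICH-Fabp4CKO mice spread widely, which is described below. Casp8, Casp6, Casp2 and Casp9, all 3 inflammatory caspases, all 3 necroptosis genes and all 4 inflammasome genes were called higher. With 1 mouse left out, Casp2 lost its call in 5 of 6 fits and Casp6, Casp9 and Mlkl in 4 of 6. Pycard, Naip5 and Casp12 kept theirs in all 6, and the others of these genes lost it in 2 or 3. Pycard was at 2.60, 2.18 and 1.78 CPM in sham and 29.8, 14.1 and 39.1 CPM after ICH (3.67 ± 0.419 SE, adjusted p = 0.00558). Naip5 rose by 5.38 ± 0.655 and Birc3 by 2.87 ± 0.399 (adjusted p = 0.00589 and 0.00737). Ripk3 had 9 counts in the 3 sham mice and 343 after ICH, a ratio of 47.2 (95% counting interval 24.6 to 104). Bcl2a1d had 3 counts in sham and 484 after ICH, a ratio of 199.7 (67.9 to 972).

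Gsdmd rose by 3.82 and Casp12 by 3.56 on the log2 scale in Fabp4CKO mice (adjusted p = 0.00791 and 0.00741). Casp8 rose from 3.499, 2.22 and 2.44 CPM to 45.2, 13.5 and 69.5 CPM (3.99 ± 0.626, adjusted p = 0.00907). Bax rose by 1.35 ± 0.241 (adjusted p = 0.012), a call lost in 4 of the 6 fits that left out 1 mouse. Mlkl was at 0.284, 0.181 and 0.328 CPM in sham and 5.08, 1.17 and 7.55 CPM after ICH (4.10 ± 0.763, adjusted p = 0.0131). Bmf, a BH3-only protein released from the cytoskeleton, rose by 1.87 ± 0.267 (adjusted p = 0.00759). Gsdme was the gene called lower, at 24.5, 24.4 and 21.4 CPM in sham and 16.6, 17.5 and 14.4 CPM after ICH (-0.52 ± 0.139, adjusted p = 0.0348). That call was lost without Sham-Fabp4CKO mouse 1, 2 or 3, without ICH-Fabp4CKO mouse 1 or 3, and with the replicate block. Bok, lower in Fabp4fl/fl mice, was at 23.9, 21.1 and 25.3 CPM in Sham-Fabp4CKO mice and 11.8, 22.2 and 8.55 CPM after ICH (-0.70 ± 0.353, adjusted p = 0.147). Without ICH-Fabp4CKO mouse 2, Bok, Bcl2l2 and Gsdme were all called lower.

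The second question was whether loss of microglial Fabp4 changed these genes after ICH. Between ICH-Fabp4CKO and ICH-Fabp4fl/fl mice, 0 of 43 genes tested passed the edgeR threshold, and 0 of all 14600 genes did (0% higher and 0% lower), with a smallest adjusted p of 0.119 among all genes. DESeq2 called 0 of the 43 as well. The median log2 fold change was 0.0707 for the 43 genes and 0.062 for all genes. At an unadjusted p under 0.05, 3 of the 43 were higher in ICH-Fabp4CKO and 0 lower, against 6.36% and 5.82% of all genes. The number higher was close to the share of all genes. These 3 genes were Casp9, Nlrp3 and Bcl2l11. Casp9 was at 24.3, 22.1 and 28.1 CPM in ICH-Fabp4fl/fl mice and 36.7, 30.6 and 41.3 CPM in ICH-Fabp4CKO mice (0.54 ± 0.180 SE, adjusted p = 0.351). All 3 knockout mice were above all 3 controls, as also for Xiap, and in no gene tested were they all below, against 10.3% and 9.51% of all genes. Nlrp3 was at 24.8, 5.97 and 19.0 CPM in ICH-Fabp4CKO mice against 5.47 to 7.62 CPM in ICH-Fabp4fl/fl mice (1.31, adjusted p = 0.381). Bcl2l11 was at 39.4, 12.7 and 59.3 CPM against 10.9 to 18.2 CPM (1.29 ± 0.533, adjusted p = 0.407). For both of these genes mice 1 and 3 of the knockouts were above all controls and mouse 2 was within their range. Without mouse 2 the differences were 1.71 and 1.70, with an adjusted p of 0.0697 for each. Without mouse 1 they were 0.906 and 1.24 (adjusted p = 0.694 and 0.675), and over the 6 fits that left out 1 mouse the lowest value for Bcl2l11 was 0.781. Markers of other cells also differed between the genotypes after ICH. In every knockout mouse 8 of 8 endothelial and 7 of 7 oligodendrocyte markers were lower than in every control. Of these, 0 passed the test (adjusted p = 0.209 to 0.355 and 0.231 to 0.36). Neutrophil markers went the other way: 7 of 7 tested were higher (median log2 fold change 2.59), with the groups not overlapping in 1. Of 8 T and NK cell markers tested, 7 were lower. Monocyte and macrophage markers were higher in 7 of 10 and microglial ones in 6 of 9. In these lists 0 passed the test either. Mitochondrial genes took 10.4% to 16.3% of counts in ICH-Fabp4fl/fl and 7.9% to 9.5% in ICH-Fabp4CKO mice. The part of these differences, and of the low Y-linked count of ICH-Fabp4CKO mouse 1, in the values of the cell death genes was not tested.

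**Figure D4:**
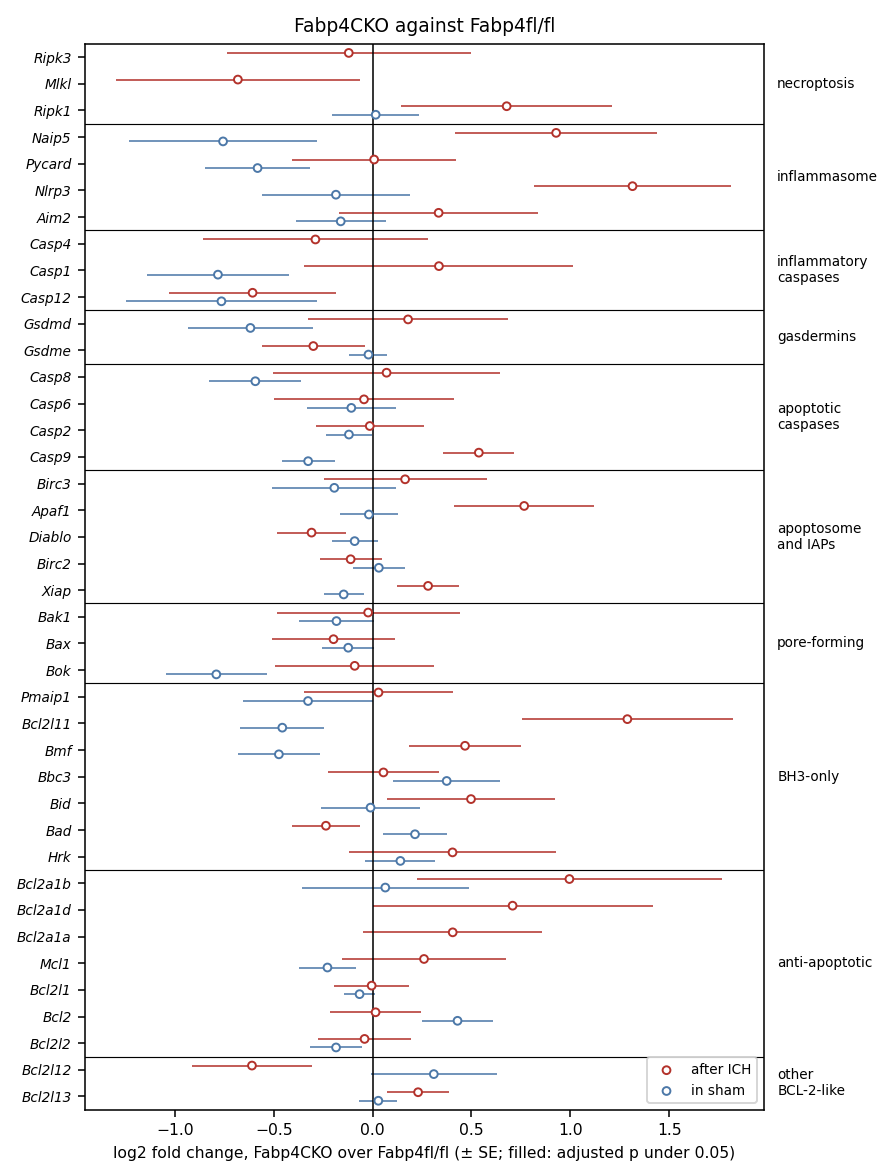
Log2 fold change of Fabp4CKO over Fabp4fl/fl mice with its SE after ICH (red) and in sham (blue), for those of the 40 genes in the plot of levels that were tested here; a filled point would mark an adjusted p under 0.05, and none is filled. Casp9, Nlrp3 and Bcl2l11, the genes with an unadjusted p under 0.05 after ICH, are to the right of 0 by 0.54, 1.31 and 1.29. Their number is close to the share of all genes tested.

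None of the central effectors of apoptosis, necroptosis and pyroptosis passed the test. Casp8, Ripk3, Mlkl, Gsdmd and Casp1 spread widely among the ICH-Fabp4CKO mice. Casp8 was at 53.1, 43.1 and 25.2 CPM in ICH-Fabp4fl/fl mice and 45.2, 13.5 and 69.5 CPM in ICH-Fabp4CKO mice, a log2 difference of 0.07 ± 0.573 (adjusted p = 0.971). Bax differed by -0.20 ± 0.309 and Bcl2 by 0.02 ± 0.231 (adjusted p = 0.822 and 0.985). Their spread was not wider in the knockouts: the SD of Bax was 11.5 CPM in ICH-Fabp4CKO and 12.9 CPM in ICH-Fabp4fl/fl mice. That of Bcl2 was 2.85 and 6.67 CPM. Ripk3 was at 8.28, 1.76 and 10.2 CPM in ICH-Fabp4CKO mice, a difference of -0.12 ± 0.618 from ICH-Fabp4fl/fl mice (adjusted p = 0.957). Mlkl differed by -0.68 ± 0.616 (adjusted p = 0.683). Gsdmd was at 19.9, 6.35 and 24.1 CPM and differed by 0.18 ± 0.507, and Casp1 was at 16.3, 3.68 and 26.1 CPM and differed by 0.34 ± 0.680 (adjusted p = 0.912 and 0.869). In each of Casp8, Ripk3, Gsdmd and Casp1 the ICH-Fabp4CKO group held the lowest and the highest of the 6 ICH mice. Apaf1 was 0.77 ± 0.354 above ICH-Fabp4fl/fl and Bcl2l12 0.61 below it on the log2 scale, with adjusted p-values of 0.445 and 0.461.

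Some orders of the mice recurred in many of the genes, though not in all. The orders counted here were picked with these values in view, so part of their excess over all genes is built in. ICH-Fabp4CKO mouse 2 was the lowest of the 6 ICH mice in 27 of the 43 genes tested (62.8%), against 26.8% of all genes tested. ICH-Fabp4CKO mouse 3 was the highest in 26 (60.5%, against 26.9%). Within ICH-Fabp4fl/fl mice, mouse 1 was the highest and mouse 3 the lowest in 25 (58.1%, against 27.8%). Genes higher after ICH in general had a related order. Among the 3862 genes higher in ICH-Fabp4fl/fl mice, mouse 2 of the knockouts was the lowest in 70.4%. Among the 29 cell death genes higher there, that mouse was the lowest in 24 (82.8%). Mouse 3 of the knockouts was the highest in 44.6% and 69% of these sets. The order within ICH-Fabp4fl/fl mice held in 62.8% and 75.9%. Both sets were chosen as high in ICH-Fabp4fl/fl mice, which makes those mice less likely to be the lowest of the 6. The summed monocyte and macrophage markers had the same order within each ICH group as Casp8, Casp1 and Gsdmd, at 2183, 1346 and 612 CPM in ICH-Fabp4fl/fl mice 1, 2 and 3 and 2442, 466 and 3161 CPM in the knockouts. Summed neutrophil markers also had this order, at 90.4, 59.1 and 53.5 CPM in ICH-Fabp4fl/fl mice and 229, 74.0 and 336 CPM in the knockouts. Summed microglial markers had it in the knockouts, at 2982, 1500 and 4423 CPM, but not in ICH-Fabp4fl/fl mice, at 1588, 1412 and 1518 CPM. Neuronal markers had the reverse order, at 1663, 2916 and 3768 CPM in ICH-Fabp4fl/fl and 2424, 4881 and 1587 CPM in ICH-Fabp4CKO mice. Whether the cell mixture accounts for the order of the cell death genes was not tested.

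In sham tissue, 0 of 37 genes tested differed between Sham-Fabp4CKO and Sham-Fabp4fl/fl mice by edgeR or DESeq2, and of all 14395 genes 0 were higher (0%) and 16 lower (0.111%). At an unadjusted p under 0.05, 1 of the 37 was higher and 3 were lower, against 4.15% and 6.07% of all genes. These were Bok (log2 fold change -0.79 ± 0.256 SE, adjusted p = 0.472), Casp8 (-0.59 ± 0.233, adjusted p = 0.484), Casp9 (-0.33 ± 0.134) and Bcl2 (0.43 ± 0.178). Casp8 was at 3.499, 2.22 and 2.44 CPM in Sham-Fabp4CKO mice, below the 3.59 to 4.55 CPM of Sham-Fabp4fl/fl mice. Bcl2 was at 38.6, 36.3 and 27.0 CPM in Sham-Fabp4CKO mice and overlapped with Sham-Fabp4fl/fl mouse 3. Bmf followed at -0.47 ± 0.207 (adjusted p = 0.484), and Bax, Casp1, Gsdmd and Nlrp3 differed by -0.12, -0.78, -0.62 and -0.19 with adjusted p-values of 0.49 to 0.844. Sham-Fabp4fl/fl mouse 3 decided these counts. Without it 1 gene, Bcl2, was called higher and 6 lower (Bok, Casp9, Bmf, Bcl2l11, Bcl2l2 and Mcl1). The number of all genes called rose as well, from 16 to 2862, so the added calls were not particular to these genes. The 2 mice that then remain in the group are those with low striatal markers, whose part in the difference was not tested.

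The interaction of ICH and genotype, the log2 fold change of ICH over sham in Fabp4CKO mice minus that in Fabp4fl/fl mice, was tested over all 12 libraries. Of 43 genes, 0 passed the edgeR threshold, and of all 15089 genes 2 had a larger response in Fabp4CKO mice (0.0133%) and 1 a smaller one (0.00663%). The 2 with a larger response were the choroid plexus markers Ttr and Folr1, from a list that was high in the Sham-Fabp4fl/fl libraries, and 8 of 8 endothelial markers had a smaller response at an unadjusted p under 0.05. Their part in the interactions of the cell death genes was not tested. At an unadjusted p under 0.05, 4 of the 43 had a larger response and 1 a smaller one, against 5.57% and 4.37% of all genes. Casp9 had the smallest p: its response was -0.13 in Fabp4fl/fl mice and 0.74 in Fabp4CKO mice, an interaction of 0.82 ± 0.222 SE (adjusted p = 0.291). By DESeq2 it was called, at 0.88 (adjusted p = 0.0345). Bcl2l11 responded by 1.301 and 3.04, an interaction of 1.69 ± 0.628 (adjusted p = 0.4), and was called without ICH-Fabp4CKO mouse 2, at 2.10 (adjusted p = 0.0286). That fit called 371 genes in all, against 3 with all 12 libraries. Bmf, Xiap and Bcl2l12 had interactions of 0.90 ± 0.365, 0.39 ± 0.165 and -0.97 ± 0.434 (adjusted p = 0.444, 0.462 and 0.495). Nlrp3 responded by 2.49 and 3.99, an interaction of 1.45 ± 0.670 (adjusted p = 0.509), while Ripk3, Mlkl, Bax and Bcl2 had interactions of -0.57, -0.22, -0.13 and -0.46. Casp8, Casp1 and Gsdmd had interactions of 0.61, 1.06 and 0.74. For these 8 genes the adjusted p-values lay between 0.509 and 0.964.

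Genes that act beside these in the same pathways were taken from lists of 59 further genes, all of them in the table. In Fabp4fl/fl mice 33 of 53 tested were higher and 4 lower after ICH, with a median log2 fold change of 0.94. Among all genes tested there, 26.2% were higher and 19.3% lower, with a median of 0.0192. In Fabp4CKO mice 32 of 54 were higher and 4 lower, against 24.5% and 11.1% of all genes tested. In the genotype comparisons after ICH and in sham, and in the interaction, 0 were called by edgeR. The lists differed. Of the death receptor genes 9 of 9 tested were higher in Fabp4fl/fl mice, with a median of 1.65, among them Tnfrsf1a, the receptor for TNF, from 12.1 to 17.1 CPM in sham to 79.6 to 144 CPM after ICH (2.999 ± 0.265 SE), and Cflar, the catalytically dead relative of caspase-8 (1.47 ± 0.173). Of 11 genes of mitochondrial and nuclear execution, such as cytochrome c and DNA-cutting enzymes, 0 were higher and 2 lower (Pgam5 and Dffa), with a median of -0.124. The number lower was close to the share of all genes. Of the p53 genes 8 of 10 were higher and 1 lower, including Cdkn1a, which halts the cell cycle (2.82 ± 0.347), and Gtse1, which is expressed in cycling cells (4.42 ± 0.310).

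Of the necroptosis regulators, 4 of 8 were higher in Fabp4fl/fl mice after ICH. They included Zbp1, the nucleic acid sensor that can activate Ripk3, from 0.578 to 1.48 CPM in sham to 21.9 to 25.3 CPM after ICH (log2 fold change 4.68 ± 0.365 SE, adjusted p = 0.00035), and Ticam1, the adaptor of Toll-like receptor 3 (1.33 ± 0.165). In Fabp4CKO mice Zbp1 rose from 0.0907 to 0.378 CPM to 9.38 to 25.2 CPM. Of the further inflammasome sensors and outputs, 9 of 11 tested were higher in Fabp4fl/fl mice and 10 of 12 in Fabp4CKO mice. Of the other IAP proteins 3 of 4 tested were higher and 1, Birc6, was lower. The former included Naip2, a sensor related to Naip5 (3.64 ± 0.293), and Birc5, which acts in cell division (5.26 ± 0.437), at 36.8, 21.7 and 14.6 CPM after ICH in Fabp4fl/fl mice and 12.2, 3.47 and 20.03 CPM in Fabp4CKO mice.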

How the data were processed

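Poly(A) RNA of hematoma-adjacent or sham brain tissue from 12 mice, 3 per group, was sequenced. The authors deposited 1 table of estimated counts per gene (expected counts, not normalized, 7.36% to 8.69% of values not whole), which were rounded here. The submitters' processing notes list Bowtie2 2.2.8, HISAT2, StringTie 1.3.1 and DESeq2 without their roles, and the genome build is not given in the sources used here, so the coordinates printed are those of RefSeq promoter windows (GRCm38.p6), and none come from the table. Strand was not stated, so reads of overlapping genes on opposite strands cannot be told apart. Groups came from the sample titles.

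Tests used R 4.3.3 and edgeR 4.0.16 (TMM, filterByExpr with a minimum count of 10 and total of 15, quasi-likelihood F-test, Benjamini-Hochberg over all genes tested, threshold 0.05) on the libraries of the 2 groups compared, or on all 12 for the interaction. SEs were derived from the log2 fold change and F. CPM are TMM-normalized. Counts at or under 3 in every library of a group were treated as the floor, and counting intervals are exact (Clopper-Pearson, 95%). Alternatives were relative log expression and total-count scaling, no filter, DESeq2 1.42.0, all libraries in 1 fit, a replicate block and leaving out each mouse. Motifs were searched in RefSeq promoter windows with Python. Genes named were the 20 with the smallest p past the threshold for ICH in Fabp4fl/fl mice, 5 to 10 for the other comparisons, 9 fixed effectors, genes at the floor and 8 other pathway genes. Genes outside this rule, picked with their values in view, complete a role or a count of 5 or fewer. The members, lists and tests were chosen with earlier results of these data known. Protein sequences were not used here. The counts cover all members, and the values of some of them are not reported here.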

Additional observations from a re-analysis of the deposited data

How the results depend on the processing

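In Fabp4fl/fl mice the number of genes higher after ICH was 29 to 32 over the other fits and 26 to 31 when 1 mouse was left out, against 29. The number lower was 2 and became 3 with DESeq2 (Bcl2l13, Bcl2l2 and Bok), 1 with all 12 libraries in one fit, and 1 with the replicate block, and 1 to 5 when 1 mouse was left out. In Fabp4CKO mice the number higher was 27 to 32 over the other fits and 6 to 34 with 1 mouse left out, and the number lower, 1, became 0 with the replicate block and 0 to 3 with 1 mouse left out. In sham the genotype counts, 0 and 0, became 0 to 1 higher and 0 to 6 lower with 1 mouse left out. In the interaction the number higher was 1 by DESeq2 and 0 to 1 with 1 mouse left out. After ICH the genotype comparison stayed at 0 calls in all 12 alternatives. Leaving out a mouse leaves a group of 2.

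Same-numbered mice of 2 groups deviated together in no consistent way (correlations from -0.576 to 0.311), so the numbers were not taken as pairs. With the replicate block 31 genes were higher in Fabp4fl/fl mice and 27 in Fabp4CKO mice. Among uncalled genes, direction changed as follows. For Bcl2 after ICH in Fabp4fl/fl mice, the log2 fold change was 0.0219 with all 12 libraries. For Bcl2 between genotypes after ICH it was -0.00982 with relative log expression, -0.0515 with total counts, -0.01 with DESeq2 and -0.0371 with all 12 libraries. For Casp8 in that comparison it was -0.0105 with total counts and -0.156 with the replicate block. With 1 mouse left out, the value in that comparison ranged from -0.152 to 0.232 for Bcl2, -0.425 to 0.0549 for Bax, -0.544 to 0.336 for Ripk3, -0.466 to 0.495 for Casp8, -0.285 to 0.802 for Casp1 and -0.171 to 0.571 for Gsdmd. It ranged from -0.276 to 0.135 for Bcl2 after ICH in Fabp4fl/fl mice, -0.496 to 0.047 for Nlrp3 between sham genotypes, and -0.782 to 0.238 for Mlkl and -0.325 to 0.178 for Bax in the interaction. The causes were not tested.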
